A study of Homo sapiens with 15 samples.

Results

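Collagen genes were taken as all genes of the count table whose symbol has the form COL, a type number, A and a chain number. There were 44 of them among 57820 gene identifiers, and they were grouped as 11 fibrillar, 6 basement membrane and 27 other collagen genes. All 44 averaged at least 1 count per library and were tested, but 17 averaged fewer than 50 counts and are described separately.

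RNA-seq was measured in A673, an Ewing sarcoma cell line driven by the fusion transcription factor EWS/FLI, in a knockdown and rescue design with 5 conditions and 3 libraries in each. iLuc cells received a control shRNA against luciferase and an empty vector, and so kept their endogenous EWS/FLI. iEF cells received an empty vector after an shRNA that depletes EWS/FLI, and the 3 rescued conditions received the same EWS/FLI shRNA followed by a cDNA. WT-EF is wildtype EWS/FLI, Δ22 is a negative control that lacks the EWS domain, and DAF is a full fusion in which tyrosines of the EWS domain were changed to alanine. The shRNA was delivered by retrovirus on day 1 and the cDNA, in a retroviral vector, on day 5. Double selection in 2 µg/mL puromycin and 400 µg/mL hygromycin B ran from day 6 to day 16. A single cell line was used, and the labels number the replicates 1 to 3. The study adjusted each set of replicates as a batch, and its scheme of a single replicate runs from the shRNA transduction to harvest. It gives colony counts of the profiled cells as representative of 3 independent experiments. It does not state outright that each numbered set of libraries was a separate transduction. The p-values measure the spread between these libraries, part of which may be technical.

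Collagens are the main structural proteins of the extracellular matrix. Each is a trimer of chains that wind into a triple helix, and in some types the chains of 1 trimer are made by separate genes. Fibrillar collagens are secreted as procollagens, trimmed by proteases and crosslinked into fibres. Type IV collagen forms the sheet of basement membranes, type VI forms beaded filaments around cells, and the fibril-associated collagens sit on the surface of fibres. Fibrillar and type VI collagens are typical products of mesenchymal cells. EWS/FLI binds GGAA motifs through the DNA-binding domain of FLI, and is known both to raise and to lower the expression of genes.

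Total counts per library ran from 28659475 to 41859880. Levels are given in CPM, which are counts scaled to the same effective library size, the total counts times edgeR's TMM normalisation factor. FLI1 reads come from the fusion and from the rescue cDNAs as far as these hold its exons. Per the study, the EWS/FLI shRNA targets the 3′ untranslated region of the fusion. Whether the cDNAs carry that region is not stated, so FLI1 counts of iLuc and of the rescues may not be comparable. The study checked the constructs by qRT-PCR and western blot, which are not part of these counts. FLI1 was at 48.0, 47.8 and 52.4 CPM in iLuc and at 12.9, 15.5 and 15.3 CPM in iEF. The log2 fold change was 1.77 (SE 0.10, adjusted p = 7.93e-09, edgeR's quasi-likelihood test). FLI1 was at 16.0, 18.0 and 18.7 CPM in WT-EF, 24.4, 32.9 and 36.2 CPM in Δ22 and 22.1, 23.6 and 27.3 CPM in DAF. All rescued libraries were above iEF and below iLuc, and WT-EF was the lowest of the 3 rescues. Against iEF the log2 fold change was 0.27 in WT-EF (SE 0.10, adjusted p = 0.0538), 1.09 in Δ22 (SE 0.10, adjusted p = 0.000446) and 0.74 in DAF (SE 0.10, adjusted p = 0.000335), and WT-EF against DAF was -0.47 (SE 0.10, adjusted p = 0.00264). The part of these levels in the comparisons of the rescues was not tested. Of the 6 markers of Ewing sarcoma lines, CD99 was at or near 0 in every library (at most 0.0782 CPM). Whether these counts reflect the expression of CD99 was not tested. The sum of the 6 was 708 to 726 CPM in iLuc, 70.7 to 85.0 CPM in iEF, 477 to 571 CPM in WT-EF, 78.2 to 149 CPM in Δ22 and 201 to 372 CPM in DAF. PRKCB and STEAP1 made up most of each sum. In DAF, PRKCB, STEAP1 and NR0B1 averaged 185, 87.6 and 28.8 CPM, beside 22.8, 46.0 and 5.71 CPM in iEF. NKX2-2 averaged 0.925 CPM in DAF and 0.943 CPM in iEF, beside 5.23 CPM in iLuc. GLI1 averaged 0.495 CPM in DAF and 0.256 CPM in iEF, beside 6.92 CPM in iLuc. Summed over the 5 fibroblast markers, the level was 58.4 to 63.1 CPM in iLuc, 165 to 241 CPM in iEF, 45.9 to 63.9 CPM in WT-EF, 99.1 to 153 CPM in Δ22 and 102 to 167 CPM in DAF. Of these 5, PDGFRA averaged 0.702 CPM in iLuc and 127 CPM in iEF, and FAP 0.821 and 24.0 CPM. THY1, which made up most of the iLuc sum, averaged 58.6 CPM in iLuc, 49.6 CPM in iEF and 77.8 CPM in DAF, and iLuc and iEF overlapped. DCN averaged 1.21 CPM in iLuc and 0.176 CPM in iEF, the other way, and LUM 0.12 and 0.541 CPM, its highest mean in any condition. PDGFRA and FAP were below iEF in every iLuc and WT-EF library, as were many of the collagen genes described next, and their part in those results was not tested. In these bulk libraries, fewer cells of a type and less RNA per cell cannot be told apart. Endothelial and haematopoietic markers stayed at or below 1.07 CPM in sum, and the epithelial sum, most of it KRT8, was 6.79 to 21.4 CPM.

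The sequences just upstream of 4 start sites are given because they belong to the genes on which the results turn: COL6A2 and COL6A3, which were far lower with EWS/FLI, COL25A1, which was higher, and the interval between the divergent starts of COL4A1 and COL4A2. They are from RefSeq on GRCh38.p14, 5′ to 3′ along the named gene, with each GGAA (or TTCC, the same motif on the other strand) in capitals.
COL6A2, chr21:46097862-46098111, plus strand: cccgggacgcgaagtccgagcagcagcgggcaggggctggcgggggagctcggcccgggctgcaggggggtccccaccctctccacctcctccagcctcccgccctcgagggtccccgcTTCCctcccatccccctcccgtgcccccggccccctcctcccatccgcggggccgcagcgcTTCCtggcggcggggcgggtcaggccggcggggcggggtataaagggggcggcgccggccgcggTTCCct
COL6A3, chr2:237414165-237414414, minus strand: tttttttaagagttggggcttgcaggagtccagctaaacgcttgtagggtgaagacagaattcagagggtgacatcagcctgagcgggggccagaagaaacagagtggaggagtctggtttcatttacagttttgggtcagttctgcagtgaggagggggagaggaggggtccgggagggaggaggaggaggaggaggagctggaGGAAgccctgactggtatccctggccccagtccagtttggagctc
COL25A1, chr4:109302659-109302908, minus strand: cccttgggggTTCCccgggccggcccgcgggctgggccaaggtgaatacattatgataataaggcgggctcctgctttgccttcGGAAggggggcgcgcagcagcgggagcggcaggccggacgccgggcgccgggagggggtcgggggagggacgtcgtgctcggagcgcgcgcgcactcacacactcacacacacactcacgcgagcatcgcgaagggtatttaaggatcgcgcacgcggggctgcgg
COL4A1 to COL4A2, chr13:110307158-110307283, plus strand: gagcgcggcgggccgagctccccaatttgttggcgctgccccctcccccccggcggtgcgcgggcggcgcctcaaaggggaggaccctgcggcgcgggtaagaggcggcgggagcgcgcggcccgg
The 250-base windows held 3 copies of the motif for COL6A2, 1 for COL6A3 and 2 for COL25A1, and the 126 bases between COL4A1 and COL4A2 held none. The table of upstream windows covered 32 of the 44 genes with 44 windows. GGAA on either strand was in 40 of these (90.9%) and in 92.7% of all 35116 windows. The tandem GGAAGGAA was in 0 of the 44 windows and in 3.06% of all windows. GGGCGG, on either strand, was in 24 windows (54.5%) and in 42.6% of all, and TATAAA was in 8 (18.2%), COL6A2's among them, and in 10.7% of all. These are letter matches and say nothing of binding.

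EWS/FLI also acts at longer GGAA repeats, known as microsatellites. On GRCh37, the same assembly as the hg19 build that the submitters' processing notes name, 16453 runs of at least 4 GGAA repeats were found on chromosomes 1 to 22, X and Y, and the nearest run was located for the start of each gene. A run lay within 5 kb of 1 collagen gene, COL8A2 (2.27% of the 44), against 3.63% of 27858 tested genes with a position. Within 100 kb it was 47.7% of the collagen genes against 54.7% of the tested genes. For the 4 genes that were higher in iLuc than in iEF, the nearest run was 38.7 kb from COL28A1 (9 repeats), 50.6 kb from COL9A1 (5 repeats), 86.5 kb from COL25A1 (6 repeats) and 133 kb from COL21A1 (6 repeats). Some genes that were lower in iLuc lay nearer to a run, such as COL15A1 (7.32 kb), COL5A3 (11.3 kb) and COL7A1 (18.5 kb), and for COL6A1, COL6A2 and COL6A3 it was over 400 kb away (522, 405 and 490.1 kb).

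Collagen transcripts were a small part of each library and the part was largest without EWS/FLI. The 44 genes took 0.410%, 0.541% and 0.482% of all counts in the 3 iEF libraries and 0.118%, 0.106% and 0.109% in iLuc, a 4.30-fold difference between the means. WT-EF libraries held 0.167%, 0.177% and 0.186%, Δ22 libraries 0.329%, 0.425% and 0.546%, and DAF libraries 0.375%, 0.400% and 0.482%. The iLuc and WT-EF libraries were each below every iEF library, and Δ22 and DAF overlapped iEF. Exact two-sided permutation tests on the means gave p = 0.1 for iLuc and for WT-EF against iEF, the smallest value that 3 against 3 libraries can reach, and p = 0.7 for Δ22 and p = 0.3 for DAF. Among the 35 tests of shares, the smallest adjusted value was 0.167.

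**Figure D1:**
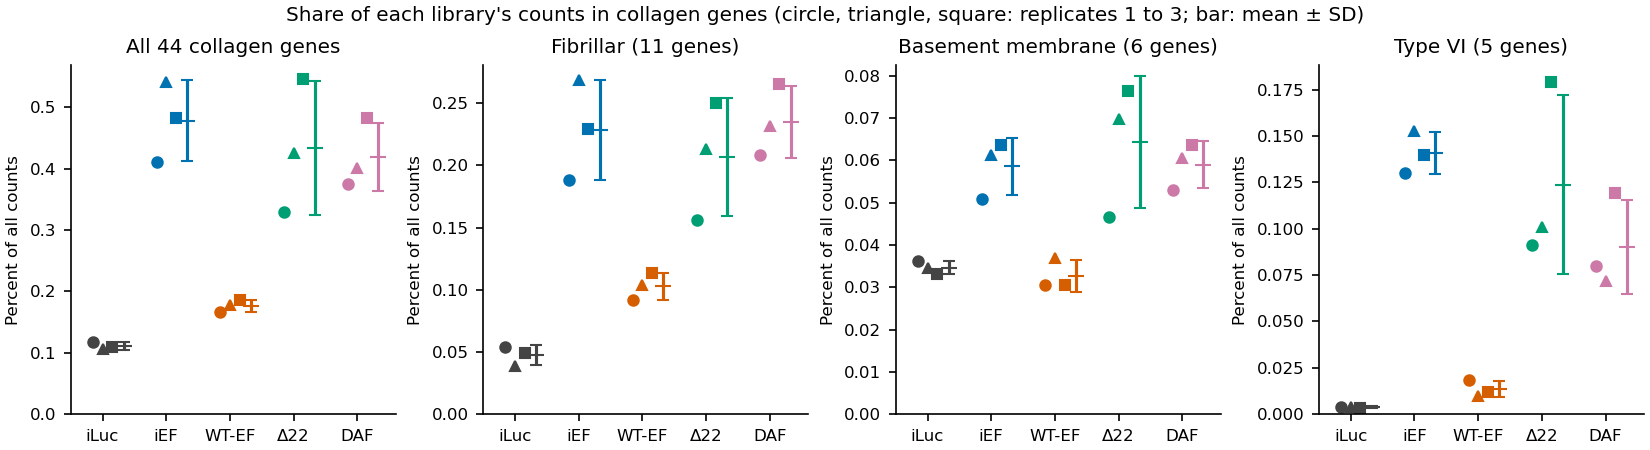
Percent of each library's counts in all 44 collagen genes and in 3 of their classes, by condition, with points for libraries and bars for mean ± SD. iLuc and WT-EF libraries lie below iEF in each panel, and 1 Δ22 library reaches 0.179% in type VI, above the other 2 at 0.0913% and 0.101%.

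The fall was shared out unequally between classes. The 11 fibrillar genes took 0.229% ± 0.0402 of the counts in iEF (SD, n = 3) and 0.0476% ± 0.0079 in iLuc, a 4.81-fold difference. The 6 basement membrane genes took 0.0586% ± 0.0068 in iEF and 0.0346% ± 0.0015 in iLuc, 1.69-fold. The 5 type VI genes took 0.141% ± 0.0113 in iEF and 0.00377% ± 0.00037 in iLuc, 37.4-fold, and 0.0134% ± 0.0043 in WT-EF, 10.6-fold below iEF.

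The order of the leading genes changed with the condition. Compared per kilobase of transcript, so that genes of different length can be set side by side, COL4A2 led in iLuc at 36.7 CPM per kb, followed by COL1A2 at 31.7, COL5A2 at 29.4 and COL21A1 at 28.8. In iEF, COL1A2 led at 250.5 CPM per kb, ahead of COL6A2 at 204 and COL6A1 at 109, neither of which was among the first 6 in iLuc. In WT-EF the order was COL1A2 at 60.6, COL5A2 at 52.6 and COL4A2 at 36.2 CPM per kb, with COL6A2 sixth at 17.8. Δ22 and DAF had COL1A2, COL6A2, COL6A1, COL5A2 and COL4A2 as their first 5 genes, as iEF did, in differing order.

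The comparison of iLuc with iEF asks which genes depend on the endogenous fusion. Of the 44 collagen genes, 29 were lower in iLuc and 4 were higher at an adjusted p under 0.05, where 22.1% of all 28793 tested genes were lower and 19.5% were higher. The median log2 fold change of the collagen genes was -1.60, beside 0.04 over all tested genes, and 26 of the 29 were lower by more than 2-fold. The libraries of the 2 conditions did not overlap for 33 of the 44, where 52.5% of all tested genes did not. By class, 9 of 11 fibrillar, 3 of 6 basement membrane and 17 of 27 other genes were lower, and all 4 higher genes (COL9A1, COL21A1, COL25A1 and COL28A1) were in the last class.

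WT-EF against iEF asks what the wildtype cDNA restores. In WT-EF, 23 collagen genes were lower and 2 higher than in iEF, where 17.0% and 12.9% of all tested genes were. The median log2 fold change was -0.95. Set against iLuc, WT-EF had 16 collagen genes higher and 3 lower, where 10.7% and 9.03% of all tested genes were, with a median of 0.79. With DESeq2 on the ComBat-adjusted counts, that median was 0.47, and it ran from 0.40 to 1.10 when libraries were left out.

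The mutants moved fewer collagen genes. DAF had 9 lower and 3 higher than iEF, where 6.19% and 5.00% of all tested genes were, with a median log2 fold change of 0.03. Δ22 had 2 lower and 0 higher by the same test, where 0.830% and 0.472% of all tested genes were, and a median of -0.09. With DESeq2, 1 was higher, where 1.61% of all tested genes were. WT-EF against DAF had 23 lower and 2 higher in WT-EF, where 16.1% and 12.4% of all tested genes were, with a median of -1.05. DAF against Δ22 had 0 higher and 0 lower by edgeR's quasi-likelihood test, where 0.948% and 0.379% of all tested genes were. The same comparison gave 2 higher and 3 lower with DESeq2, where 1.63% and 1.07% of all tested genes were. Comparisons with iEF share the 3 iEF libraries, so their values are set side by side only. At an unadjusted p under 0.05, DAF against Δ22 had 4 higher and 7 lower, where 4.92% and 5.25% of all tested genes were, and Δ22 against iEF had 3 higher and 9 lower, where 6.48% and 7.13% were. Without replicate 2, calls were lost across the whole table. DAF then had 3 collagen genes lower than iEF, where 2.01% of all tested genes were, and 1 higher, where 1.72% were. Δ22 then had 0 collagen genes called, and 0 of all tested genes in either direction.

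**Figure D2:**
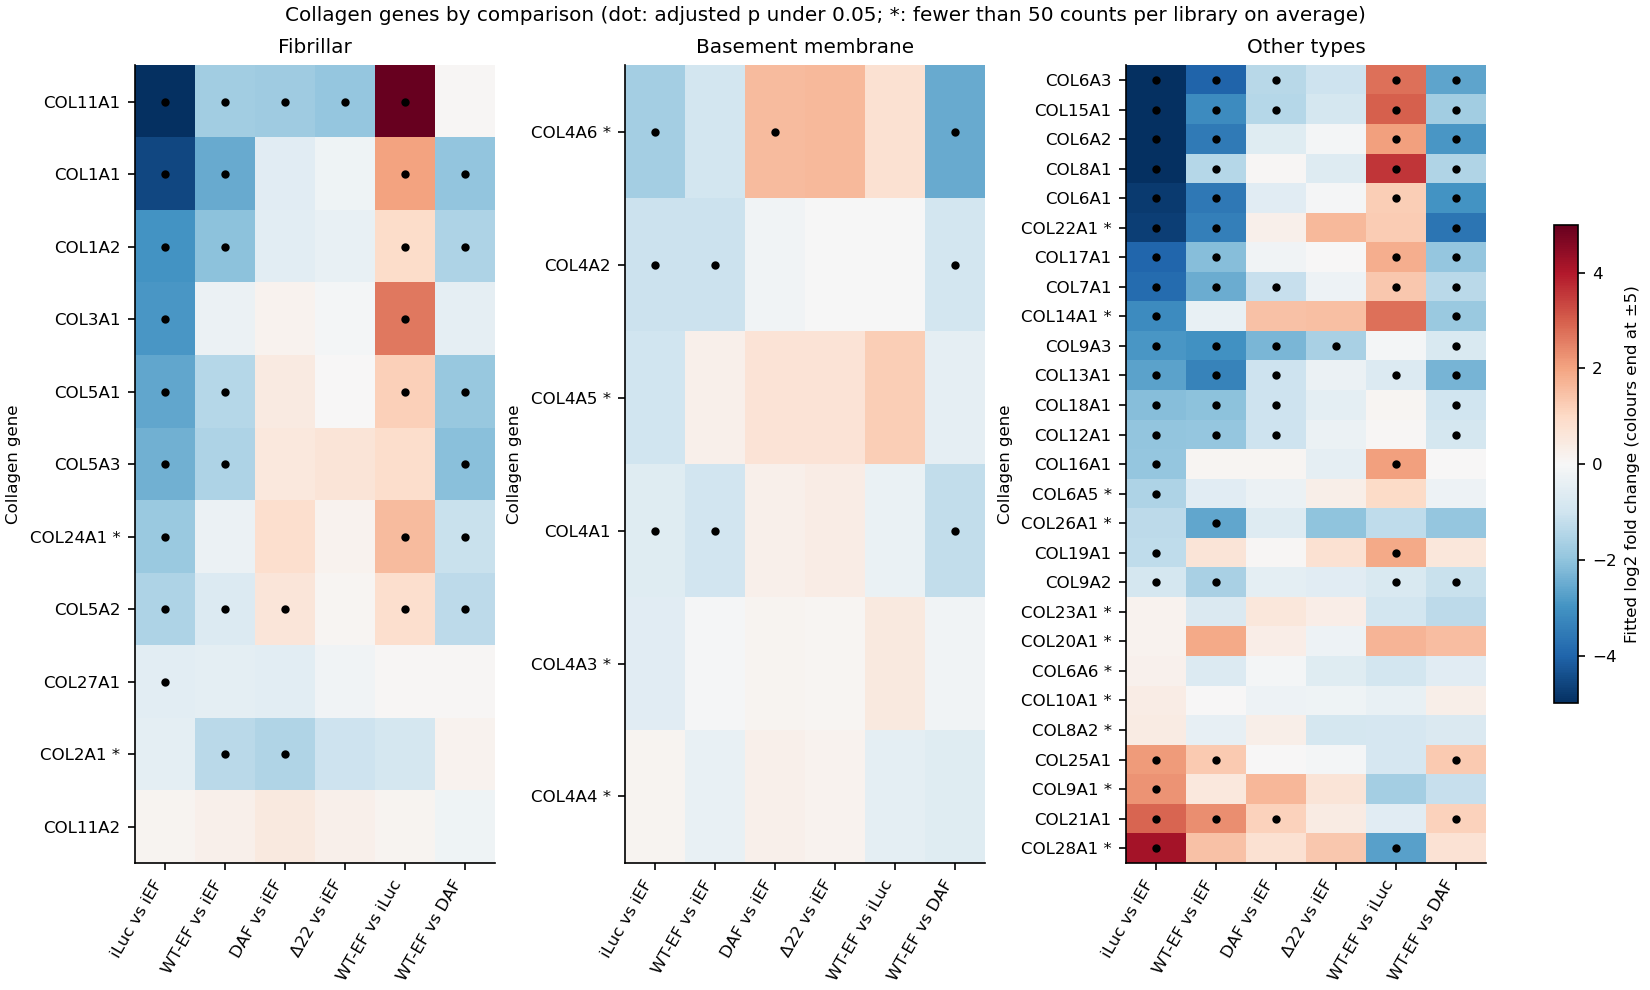
Fitted log2 fold changes of the 44 collagen genes in 6 comparisons, ordered within class by iLuc against iEF, with a dot where the adjusted p was under 0.05. The first 2 columns are mostly blue, the DAF and Δ22 columns are mostly pale, and WT-EF against iLuc is red for most fibrillar genes.

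Among the fibrillar genes, COL1A2 (chromosome 7, 94024207 to 94060539 on GRCh37), which makes the second chain of type I collagen, was the most abundant fibrillar transcript. Its levels were 189.5, 101 and 192 CPM in iLuc, 1124, 1449.7 and 1237 CPM in iEF, 266, 288 and 367 CPM in WT-EF, 826, 1004 and 1149.9 CPM in Δ22 and 868, 876 and 935 CPM in DAF. The iLuc and WT-EF libraries lay far below iEF and did not overlap each other, the DAF libraries were all below iEF, and Δ22 overlapped iEF. Its log2 fold change against iEF was -3.00 (SE 0.20, adjusted p = 2.62e-08) in iLuc, -2.07 (SE 0.19, adjusted p = 1.69e-06) in WT-EF and -0.51 (SE 0.18, adjusted p = 0.0908) in DAF, and WT-EF against DAF was -1.55 (SE 0.19, adjusted p = 3.11e-05). COL1A1 (chromosome 17, 48261462 to 48278993), the gene of the other type I chain, was at 5.26, 2.78 and 6.09 CPM in iLuc, 94.6, 99.7 and 131 CPM in iEF and 26.4, 16.2 and 12.4 CPM in WT-EF, with no overlap between the 3 conditions. It was 23.5-fold lower in iLuc and 5.77-fold lower in WT-EF than in iEF, and in DAF the log2 fold change was -0.56 (SE 0.27, adjusted p = 0.234).

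COL3A1, the single gene of type III collagen, fell in iLuc and did not pass in WT-EF against iEF. It was at 29.99, 9.31 and 17.3 CPM in iLuc, at 88.9, 228 and 148 CPM in iEF, at 88.8, 131 and 166 CPM in WT-EF, at 63.9, 140.2 and 261 CPM in Δ22 and at 123, 173 and 239.7 CPM in DAF. Only the iLuc libraries stood apart, and the other conditions overlapped one another. The log2 fold change against iEF was -2.91 (SE 0.47, adjusted p = 0.000145) in iLuc and -0.29 (SE 0.43, adjusted p = 0.684) in WT-EF, and WT-EF was above iLuc by 2.62 (SE 0.46, adjusted p = 0.00114). COL16A1, a fibril-associated collagen, had values of the same kind, at 9.34 to 15.3 CPM in iLuc, 32.9 to 78.7 CPM in iEF and 40.5 to 63.2 CPM in WT-EF. Its log2 fold change against iEF was -1.95 (SE 0.33, adjusted p = 0.000203) in iLuc and 0.09 (SE 0.31, adjusted p = 0.876) in WT-EF.

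Type V collagen nucleates and limits the width of collagen fibres. COL5A1 was at 36.9, 28.7 and 34.1 CPM in iLuc, 165, 194 and 263 CPM in iEF, 69.9, 80.1 and 79.2 CPM in WT-EF, 148, 238 and 245 CPM in Δ22 and 213, 298 and 348 CPM in DAF. COL5A2 was at 206, 192 and 204 CPM in iLuc, 498, 626 and 629 CPM in iEF, 333, 391 and 353 CPM in WT-EF, 457, 625 and 816 CPM in Δ22 and 753, 812 and 1107 CPM in DAF. For COL5A2 every iLuc and WT-EF library was below iEF, and every DAF library was above it. COL5A2 fell by 0.69 on the log2 scale in WT-EF (SE 0.14, adjusted p = 0.00125) and rose by 0.60 in DAF (SE 0.14, adjusted p = 0.0105), and WT-EF against DAF was -1.29 (SE 0.14, adjusted p = 1.28e-05). The rise in DAF lost its call in 4 of 16 alternatives, those without replicate 2, without iEF replicate 1 or 3, or without DAF replicate 3, with adjusted p up to 0.0769. For COL5A1 the values were -1.42 (SE 0.16, adjusted p = 1.09e-05) in WT-EF and 0.46 (SE 0.16, adjusted p = 0.0753) in DAF, with WT-EF against DAF at -1.88 (SE 0.16, adjusted p = 3.07e-06). COL5A3, the third type V chain gene, was at 28.0 to 33.4 CPM in iEF and 8.80 to 14.3 CPM in WT-EF, a log2 fold change of -1.54 (SE 0.41, adjusted p = 0.00999), and 1 Δ22 library, at 99.8 CPM, was above the other 2 at 24.9 and 38.1 CPM.

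COL11A1, a chain of the minor fibrillar collagen of cartilage, had the largest fitted fall of the 44 genes in iLuc. It was at 0.642, 0.421 and 0.925 CPM in iLuc (15 to 31 counts), 52.3, 88.3 and 93.1 CPM in iEF, 19.7, 53.8 and 9.51 CPM in WT-EF, 24.2, 24.9 and 14.8 CPM in Δ22 and 23.6, 35.3 and 14.96 CPM in DAF. iLuc was below all other libraries, the 3 rescued conditions overlapped one another, and only 1 WT-EF library reached the iEF range. Against iEF the log2 fold change was -6.91 in iLuc (SE 0.54, adjusted p = 1.18e-07), -1.73 in WT-EF (SE 0.39, adjusted p = 0.00372), -1.77 in DAF (SE 0.39, adjusted p = 0.00889) and -1.93 in Δ22 (SE 0.39, adjusted p = 0.0259). WT-EF differed from DAF by 0.04 (95% interval -0.71 to 0.79) and from iLuc by 5.18 (SE 0.53, adjusted p = 1.62e-05). The Δ22 call was lost in 7 of 15 alternatives (highest adjusted p 0.242), among them the fit without the replicate block. The DAF call was lost in 3 of 15, those without replicate 1, iEF replicate 3 or DAF replicate 3. Of the rest of the class, COL27A1 was lower in iLuc (log2 fold change -0.55, SE 0.20, adjusted p = 0.0429) and COL11A2 did not pass in any comparison described here, at 1.37 to 2.51 CPM.

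**Figure D3:**
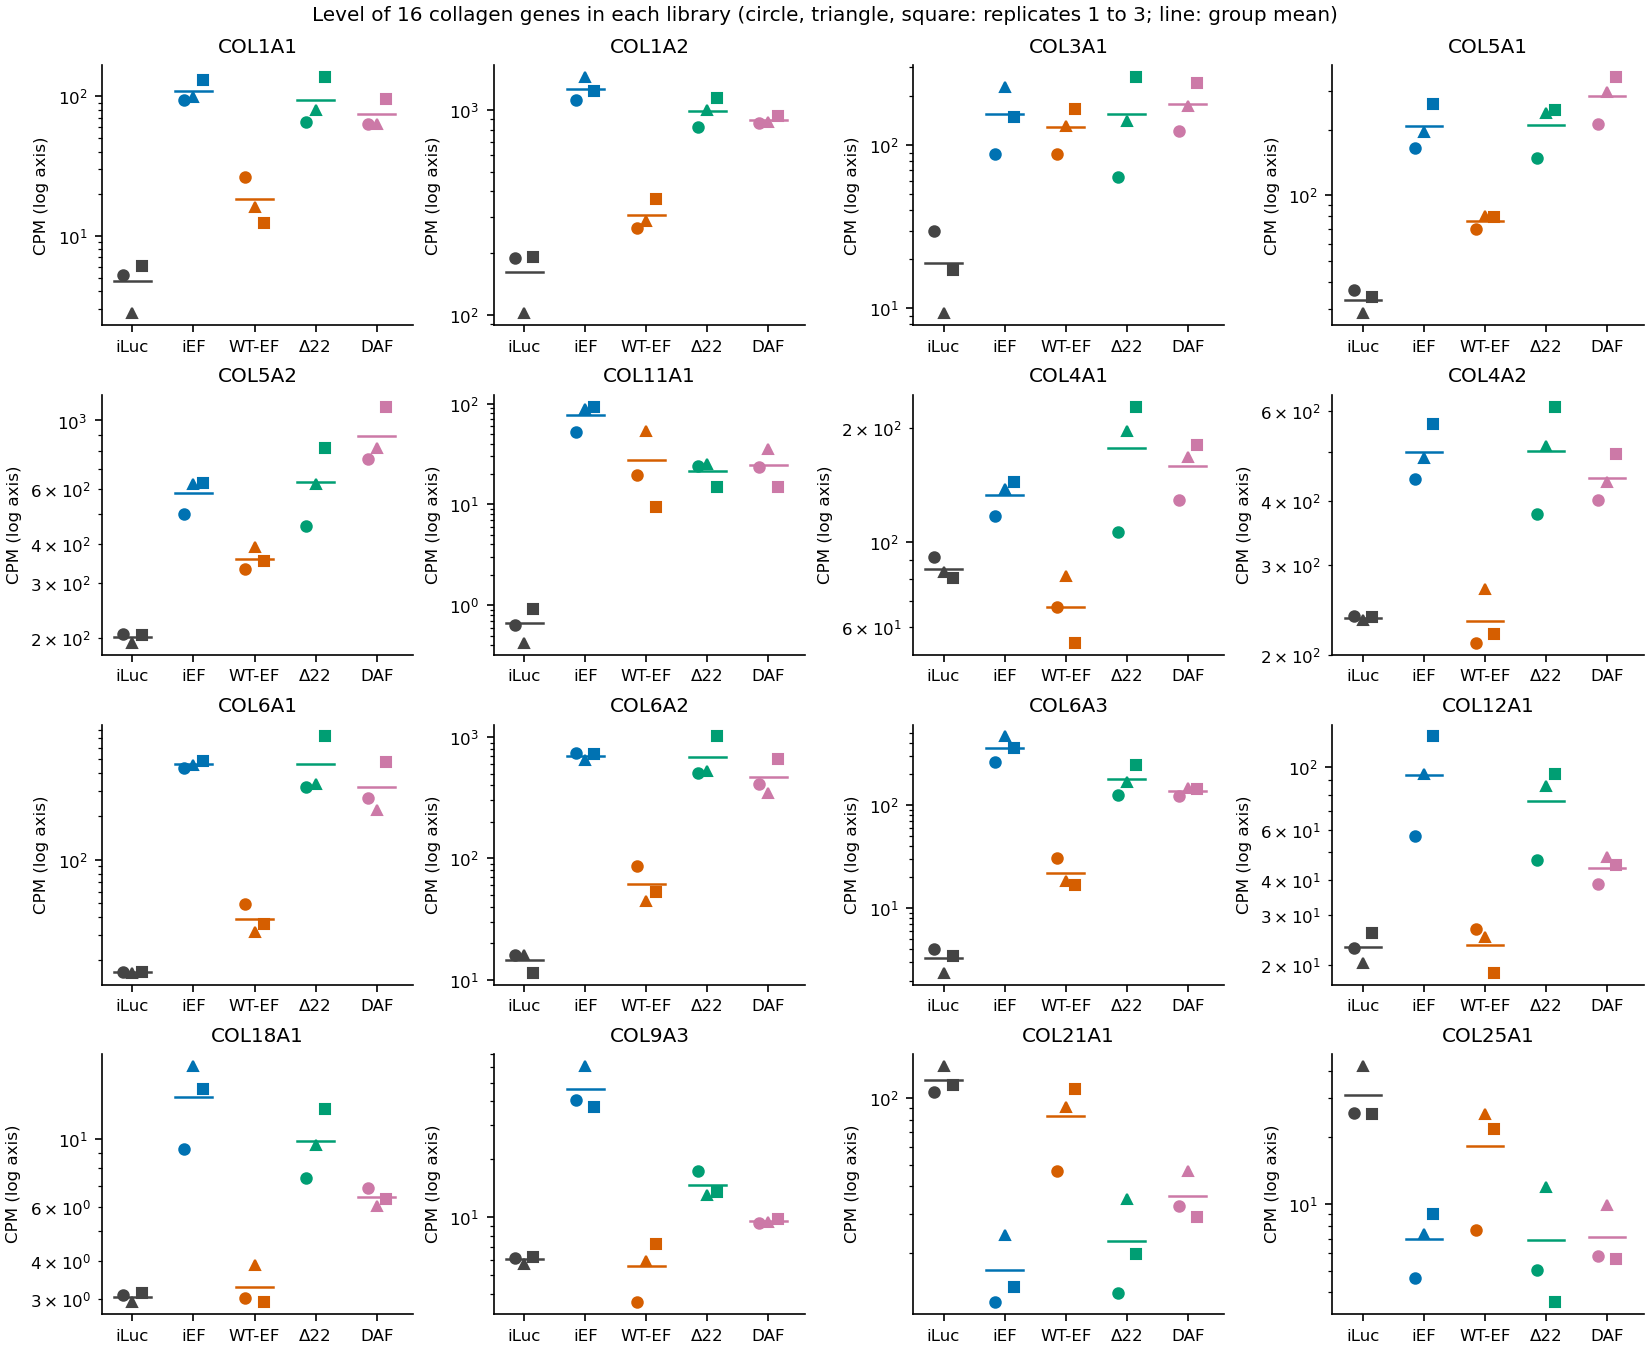
Level of 16 collagen genes in each library, in CPM on a log axis that differs between panels, with points for libraries and lines for group means. For COL6A1, COL6A2 and COL6A3 the order is iLuc, WT-EF, then the other 3 conditions, while the group mean of COL21A1 is highest in iLuc and lowest in iEF.

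COL4A2 and COL4A1, on chromosome 13 at 110958159 to 111165556 and 110801310 to 110959504 of GRCh37, make the chains of the common basement membrane trimer of type IV collagen and were the only 2 genes of the class above 1 CPM. COL4A2 was at 238, 234 and 237 CPM in iLuc, 442, 486 and 567 CPM in iEF, 211, 269 and 219 CPM in WT-EF, 377, 514 and 613 CPM in Δ22 and 402, 436 and 496 CPM in DAF. COL4A1 was at 91.7, 83.5 and 80.7 CPM in iLuc, 117, 138 and 144 CPM in iEF, 67.6, 81.4 and 54.3 CPM in WT-EF, 107, 196 and 227 CPM in Δ22 and 129, 167 and 179.7 CPM in DAF. For both genes every iLuc and WT-EF library was below every iEF library, and Δ22 and DAF overlapped iEF. COL4A2 had log2 fold changes against iEF of -1.06 in iLuc (SE 0.12, adjusted p = 5.2e-06) and -1.09 in WT-EF (SE 0.12, adjusted p = 9.41e-06), and WT-EF and iLuc differed by -0.03 (SE 0.12, adjusted p = 0.923). For COL4A1 the values were -0.62 (SE 0.19, adjusted p = 0.0175) and -0.96 (SE 0.20, adjusted p = 0.00155). The iLuc call of COL4A1 was lost in 4 of 16 alternatives, those without replicate 2, iLuc replicate 2 or 3, or iEF replicate 1, with adjusted p up to 0.149.

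The other 4 type IV genes, whose chains form the trimers of kidney and other specialised basement membranes, were close to the limit of detection. COL4A6 had 4, 3 and 1 counts in iLuc, 8, 6 and 12 in iEF, 3, 8 and 4 in WT-EF, 32, 38 and 13 in Δ22 and 24, 27 and 23 in DAF. All DAF and Δ22 libraries were above all iEF libraries. The log2 fold change against iEF was 1.57 in DAF (SE 0.41, adjusted p = 0.0226) and 1.61 in Δ22 (SE 0.41, adjusted p = 0.0738), and WT-EF against DAF was -2.51 (SE 0.45, adjusted p = 0.000671). The DAF call was lost in 6 of 16 alternatives, each of which left out libraries (highest adjusted p 0.204). In iLuc the log2 fold change was -1.68 (SE 0.57, adjusted p = 0.0271), a call lost in 7 of 16 alternatives, namely the ComBat-adjusted counts, only the 6 libraries compared and 5 without libraries. COL4A4 was at 7 to 21 counts in each library, with 12, 18 and 12 in iLuc, 7, 15 and 15 in iEF, 15, 10 and 7 in WT-EF, 17, 18 and 8 in Δ22 and 10, 21 and 12 in DAF. All conditions overlapped, and it did not pass in any comparison. COL4A3 and COL4A5 had at most 20 and 10 counts and did not pass either.

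The 3 main type VI chains, COL6A1, COL6A2 and COL6A3, assemble into a single trimer. COL6A1 was at 16.5, 16.4 and 16.7 CPM in iLuc, 435, 459 and 485 CPM in iEF, 49.02, 31.6 and 36.1 CPM in WT-EF, 323, 337 and 721 CPM in Δ22 and 268, 223 and 476 CPM in DAF. COL6A2 was at 16.0, 16.1 and 11.4 CPM in iLuc, 734, 643 and 729 CPM in iEF, 85.9, 44.3 and 53.3 CPM in WT-EF, 502, 524 and 1013 CPM in Δ22 and 413, 348 and 654 CPM in DAF. COL6A3 was at 4.0, 2.38 and 3.43 CPM in iLuc, 262, 459.8 and 351 CPM in iEF, 30.7, 18.3 and 16.8 CPM in WT-EF, 126, 167 and 240.4 CPM in Δ22 and 123, 145 and 141 CPM in DAF. For all 3 genes, iLuc lay below WT-EF and WT-EF below every other library, and Δ22 replicate 3 was the highest Δ22 library. Only for COL6A3 did all Δ22 and all DAF libraries fall below iEF.

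COL6A3 was 109-fold lower in iLuc than in iEF, COL6A2 47.5-fold and COL6A1 27.8-fold, with adjusted p between 3.09e-09 and 7.68e-09 by edgeR. In WT-EF they were 16.2-fold, 11.6-fold and 11.8-fold lower than in iEF. WT-EF stayed above iLuc for all 3, by 2.76 (SE 0.31, adjusted p = 3.83e-05), 2.04 (SE 0.28, adjusted p = 0.000179) and 1.23 (SE 0.25, adjusted p = 0.00257) on the log2 scale for COL6A3, COL6A2 and COL6A1. These 3 calls were lost with DESeq2 on the ComBat-adjusted counts, where the differences were 0.95, 0.81 and 0.55, and that of COL6A1 also without replicate 1.

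In DAF, COL6A3 was lower than in iEF (log2 fold change -1.39, SE 0.27, adjusted p = 0.00382), a call lost with the ComBat-adjusted counts and without replicate 2 (adjusted p up to 0.0771). COL6A1 and COL6A2 in DAF were at -0.58 (95% interval -1.04 to -0.12, adjusted p = 0.14) and -0.61 (-1.12 to -0.09, adjusted p = 0.171). WT-EF against DAF was -2.98 for COL6A1 (SE 0.25, adjusted p = 2.83e-06), -2.93 for COL6A2 (SE 0.28, adjusted p = 6.15e-06) and -2.63 for COL6A3 (SE 0.28, adjusted p = 1.38e-05). In Δ22, COL6A1 was at -0.07 (95% interval -0.53 to 0.38), COL6A2 at -0.08 (-0.59 to 0.43) and COL6A3 at -1.02 (SE 0.27, adjusted p = 0.0794). The minor type VI chains COL6A5 and COL6A6 had at most 55 and 20 counts, and of these COL6A5 was lower in iLuc (log2 fold change -1.53, SE 0.59, adjusted p = 0.049).

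Of the 10 fibril-associated collagens, 7 were lower in iLuc than in iEF and 2 were higher. COL9A3, a chain of the type IX collagen that coats cartilage fibres, was at 6.14, 5.75 and 6.27 CPM in iLuc, 40.5, 60.9 and 37.3 CPM in iEF, 3.63, 5.97 and 7.27 CPM in WT-EF, 17.5, 13.1 and 13.5 CPM in Δ22 and 9.35, 9.44 and 9.83 CPM in DAF. Each of the 4 conditions was below iEF in all libraries, and iLuc and WT-EF overlapped. Against iEF the log2 fold changes were -2.92 (SE 0.23, adjusted p = 1.39e-07) in iLuc, -3.04 (SE 0.23, adjusted p = 3.95e-07) in WT-EF, -2.27 (SE 0.22, adjusted p = 2.92e-05) in DAF and -1.64 (SE 0.22, adjusted p = 0.00421) in Δ22. The Δ22 call was lost without replicate 2 (adjusted p = 0.242). The difference between WT-EF and DAF, -0.77 (SE 0.23, adjusted p = 0.0183), was lost in 6 of 16 alternatives, all of which left out libraries (replicate 1 or 2 of all conditions, WT-EF replicate 1 or 2, or DAF replicate 1 or 3). The exons of COL9A3 overlap those of TCFL5 on the opposite strand, and the strand setting of the counting is not given in the sources used here. COL9A2, the second type IX chain, was lower in iLuc (-0.87, SE 0.23, adjusted p = 0.00608) and in WT-EF (-1.63, SE 0.23, adjusted p = 8.89e-05).

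COL21A1 (chromosome 6, 55921388 to 56258892 of GRCh37), a collagen of the same class, moved the other way. It was at 107, 139 and 114 CPM in iLuc, 12.03, 24.2 and 14.2 CPM in iEF, 47.0, 91.0 and 110.3 CPM in WT-EF, 13.2, 35.0 and 19.9 CPM in Δ22 and 32.8, 47.1 and 29.0 CPM in DAF. iLuc, WT-EF and DAF were each above all iEF libraries, and Δ22 overlapped iEF. It was 7.45-fold higher in iLuc (adjusted p = 1.75e-07), 4.99-fold higher in WT-EF (adjusted p = 3.46e-06) and 2.23-fold higher in DAF (adjusted p = 0.00413) than in iEF, and WT-EF was above DAF by 1.16 on the log2 scale (SE 0.22, adjusted p = 0.00116). The DAF call was lost without the replicate block (adjusted p = 0.0651).

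Among the rest of the class, COL12A1 had log2 fold changes against iEF of -1.97 in iLuc (SE 0.24, adjusted p = 1.07e-05), -1.92 in WT-EF (SE 0.24, adjusted p = 2.87e-05) and -1.05 in DAF (SE 0.23, adjusted p = 0.00948). COL19A1 was lower in iLuc (-1.27, SE 0.43, adjusted p = 0.0268), and WT-EF was above iLuc by 1.90 (SE 0.42, adjusted p = 0.00506).

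Among the transmembrane collagens, COL13A1 spans the cell membrane at sites of adhesion. It was at 13.7, 22.05 and 16.8 CPM in iLuc, 122, 110.4 and 104 CPM in iEF, 12.2, 11.2 and 9.91 CPM in WT-EF, 122, 89.6 and 69.9 CPM in Δ22 and 73.7, 50.8 and 42.7 CPM in DAF. iLuc, WT-EF and DAF were below every iEF library and WT-EF was the lowest. The log2 fold change against iEF was -2.66 (SE 0.19, adjusted p = 4.99e-08) in iLuc, -3.34 (SE 0.19, adjusted p = 5.6e-08) in WT-EF and -1.03 (SE 0.18, adjusted p = 0.00185) in DAF. WT-EF against iLuc was -0.68 (SE 0.19, adjusted p = 0.0184), a call lost in 8 of 16 alternatives (highest adjusted p 0.267), namely the fits without the replicate block, of only the 6 libraries compared and 6 without libraries.

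COL25A1 (chromosome 4, 109729881 to 110223908 of GRCh37), a transmembrane collagen known from neurons, rose with EWS/FLI. It was at 25.7, 42.1 and 25.6 CPM in iLuc, 4.62, 7.32 and 9.02 CPM in iEF, 7.67, 25.6 and 21.9 CPM in WT-EF, 5.07, 11.9 and 3.61 CPM in Δ22 and 5.87, 9.89 and 5.67 CPM in DAF. All iLuc libraries were above iEF, 1 WT-EF library fell within the iEF range, and Δ22 and DAF overlapped iEF. Its log2 fold change against iEF was 2.14 (SE 0.31, adjusted p = 5.97e-05) in iLuc, 1.30 (SE 0.31, adjusted p = 0.00498) in WT-EF and 0.00 (SE 0.32) in DAF, and WT-EF was above DAF by 1.30 (SE 0.31, adjusted p = 0.00563). Both WT-EF calls were lost without replicate 2, with adjusted p of 0.0939 against iEF and 0.0624 against DAF. COL17A1, a collagen of hemidesmosomes, was at -3.95 in iLuc (SE 0.37, adjusted p = 8.31e-07) and -2.12 in WT-EF (SE 0.32, adjusted p = 0.000129).

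The multiplexins COL15A1 and COL18A1 are basement membrane zone proteoglycans. COL15A1 had 4, 0 and 1 counts in iLuc, 118, 138 and 120 in iEF, 12, 25 and 11 in WT-EF, 45, 112 and 56 in Δ22 and 22, 78 and 46 in DAF. In CPM, the levels were 3.10, 4.65 and 3.49 in iEF, 0.332, 0.661 and 0.293 in WT-EF, 1.32, 2.92 and 2.00 in Δ22 and 0.773, 2.06 and 1.54 in DAF, with iEF above every other library. Its log2 fold change against iEF was -3.16 in WT-EF (SE 0.37, adjusted p = 1.32e-05) and -1.41 in DAF (SE 0.33, adjusted p = 0.0116). The DAF call was lost in 6 of 16 alternatives (no replicate block, without replicate 1 or 2, iEF replicate 1, or DAF replicate 1 or 2), with adjusted p up to 0.0747. The difference between WT-EF and iLuc, 2.99 (SE 0.62, adjusted p = 0.00364), rested on few iLuc counts, ran from 1.35 to 4.80 over the alternatives and lost its call without replicate 2. COL18A1, whose exons overlap those of SLC19A1 on the opposite strand, was at -2.13 in iLuc (SE 0.21, adjusted p = 1.29e-06), -2.04 in WT-EF (SE 0.21, adjusted p = 4.54e-06) and -1.05 in DAF (SE 0.20, adjusted p = 0.00377).

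COL7A1, which forms the anchoring fibrils of skin, had log2 fold changes against iEF of -3.85 in iLuc (SE 0.29, adjusted p = 9.17e-08), -2.50 in WT-EF (SE 0.27, adjusted p = 7.34e-06) and -1.16 in DAF (SE 0.26, adjusted p = 0.00898). COL8A1, a network collagen of vessel walls and cornea, was at 4.07, 1.63 and 1.88 CPM in iLuc, 70.7, 67.7 and 97.2 CPM in iEF, 48.0, 27.9 and 14.3 CPM in WT-EF and 65.9, 92.3 and 86.7 CPM in DAF. It was 32.1-fold lower in iLuc and 2.72-fold lower in WT-EF than in iEF, and DAF overlapped iEF with a log2 fold change of 0.06 (95% interval -0.61 to 0.72). In Δ22, COL8A1 was at 39.1, 57.9 and 51.8 CPM, below every iEF and every DAF library. Neither of these differences passed by edgeR.

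Of the 17 collagen genes that averaged fewer than 50 counts, none exceeded 2.76 CPM in any library. Of these, COL10A1, COL20A1, COL23A1, COL8A2, COL4A3, COL4A4, COL4A5 and COL6A6 did not pass in any of the 7 comparisons by edgeR. COL28A1 had 21, 53 and 43 counts in iLuc and at most 11 in any other library, a log2 fold change of 4.17 against iEF (SE 0.61, adjusted p = 5.8e-05), and WT-EF against iLuc was -2.70 (SE 0.51, adjusted p = 0.00179). COL9A1 had 5, 8 and 12 counts in iLuc and 3, 2 and 0 in iEF (adjusted p = 0.022). COL22A1 had 2, 0 and 0 counts in iLuc, 20, 19 and 20 in iEF, 1, 5 and 0 in WT-EF, 34, 106 and 54 in Δ22 and 12, 31 and 27 in DAF, so that Δ22 held the highest libraries. COL14A1 was at 0, 1 and 0 counts in iLuc and 3, 6 and 2 in iEF (adjusted p = 0.0207). COL24A1 had 6, 5 and 6 counts in iLuc and 18, 17 and 27 in iEF (adjusted p = 0.0026). COL2A1, the main collagen of cartilage, had 37, 27 and 35 counts in iLuc and 40, 45 and 54 in iEF (adjusted p = 0.309), 7 to 30 in WT-EF (adjusted p = 0.0113) and 11 to 17 in DAF (adjusted p = 0.018). COL26A1 had 7, 17 and 8 counts in iEF and 0, 2 and 4 in WT-EF (adjusted p = 0.0124).

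The chains of a trimer can be compared as ratios within a library. COL6A1 and COL6A2 are neighbours on chromosome 21 (47401684 to 47424964 and 47518026 to 47552762 of GRCh37) and COL6A3 is on chromosome 2 (238232646 to 238322971). The ratio of COL6A3 to COL6A1 was 0.602, 1.00 and 0.724 in iEF and 0.243, 0.145 and 0.206 in iLuc, with no overlap. It was also below every iEF library in Δ22, at 0.389, 0.496 and 0.333. The ratio of COL6A1 to COL6A2 was 0.593, 0.713 and 0.665 in iEF and 1.03, 1.02 and 1.46 in iLuc, again without overlap, and 0.570 to 0.727 in all libraries of WT-EF, Δ22 and DAF. COL1A1 to COL1A2 was 0.0842, 0.0688 and 0.106 in iEF and 0.0277, 0.0274 and 0.0318 in iLuc. COL4A1 to COL4A2, which share the interval printed above, was 0.265, 0.284 and 0.254 in iEF, 0.384, 0.357 and 0.340 in iLuc and 0.321, 0.384 and 0.363 in DAF, with iLuc and DAF both above iEF. The ratios are of CPM, not per length, and serve only to compare conditions. Exact two-sided permutation tests on the log2 ratios gave p = 0.1 for each of the 4 pairs in iLuc against iEF, for COL4A1/COL4A2 in DAF and for COL6A3/COL6A1 in Δ22, the smallest that 3 against 3 allows, and no adjusted value under 0.05 is possible among the 16 tests made.

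**Figure D4:**
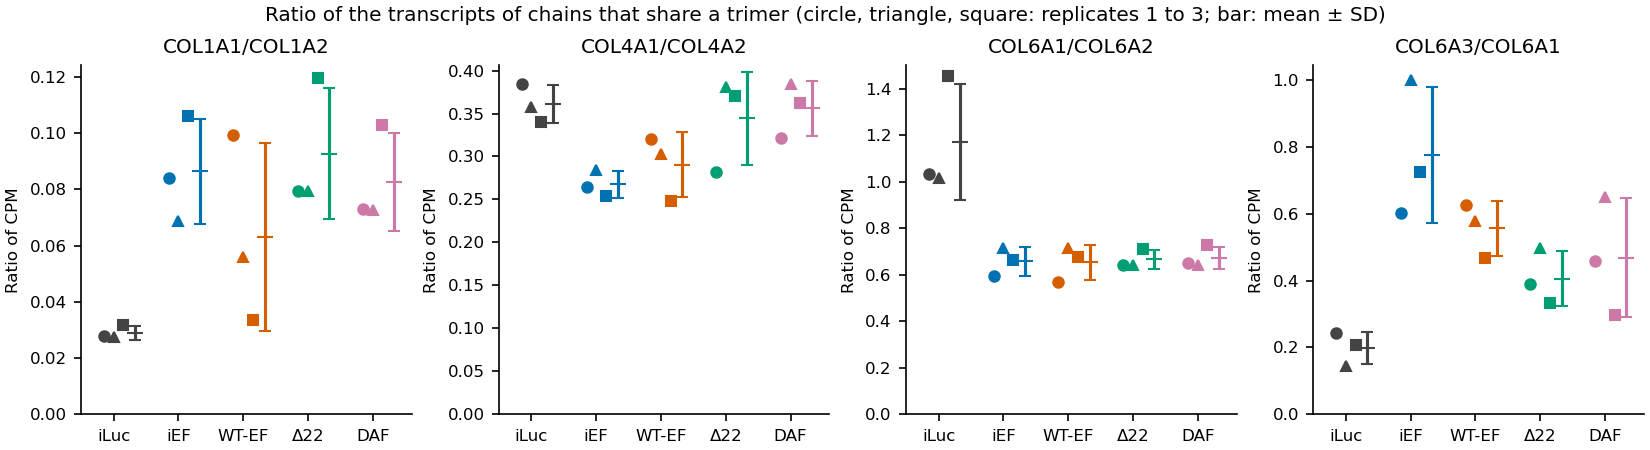
Ratio of CPM between genes whose chains share a trimer, by condition, with points for libraries and bars for mean ± SD. iLuc stands apart from iEF in each panel, lower in COL1A1/COL1A2 and COL6A3/COL6A1 and higher in the other 2.

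COL3A1 and COL5A2 lie tail to tail on chromosome 2. Their log2 fold changes were -2.91 and -1.53 in iLuc, -0.29 and -0.69 in WT-EF and 0.18 and 0.60 in DAF, against iEF. The head-to-head pair COL4A3 and COL4A4 did not pass in any comparison, and of COL4A5 and COL4A6, also head to head, only the second passed. Of the neighbours COL6A5 and COL6A6, the first alone passed, in iLuc against iEF.

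WT-EF against DAF sets the wildtype fusion beside the one with changed tyrosines, in libraries that also differed in FLI1 level, as given above. Of the 27 collagen genes with at least 50 counts on average, COL21A1 and COL25A1 were higher in WT-EF, and COL3A1, COL11A1, COL11A2, COL16A1, COL19A1 and COL27A1 did not pass. The other 19 were lower in WT-EF, with log2 fold changes from -2.98 (COL6A1) to -0.77 (COL9A3). For the genes that did not pass, the intervals of the difference varied in width. They were -1.30 to 0.36 for COL3A1 and -0.60 to 0.61 for COL16A1, and narrower at -0.36 to 0.44 for COL27A1 and -0.63 to 0.17 for COL11A2.

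**Figure D5:**
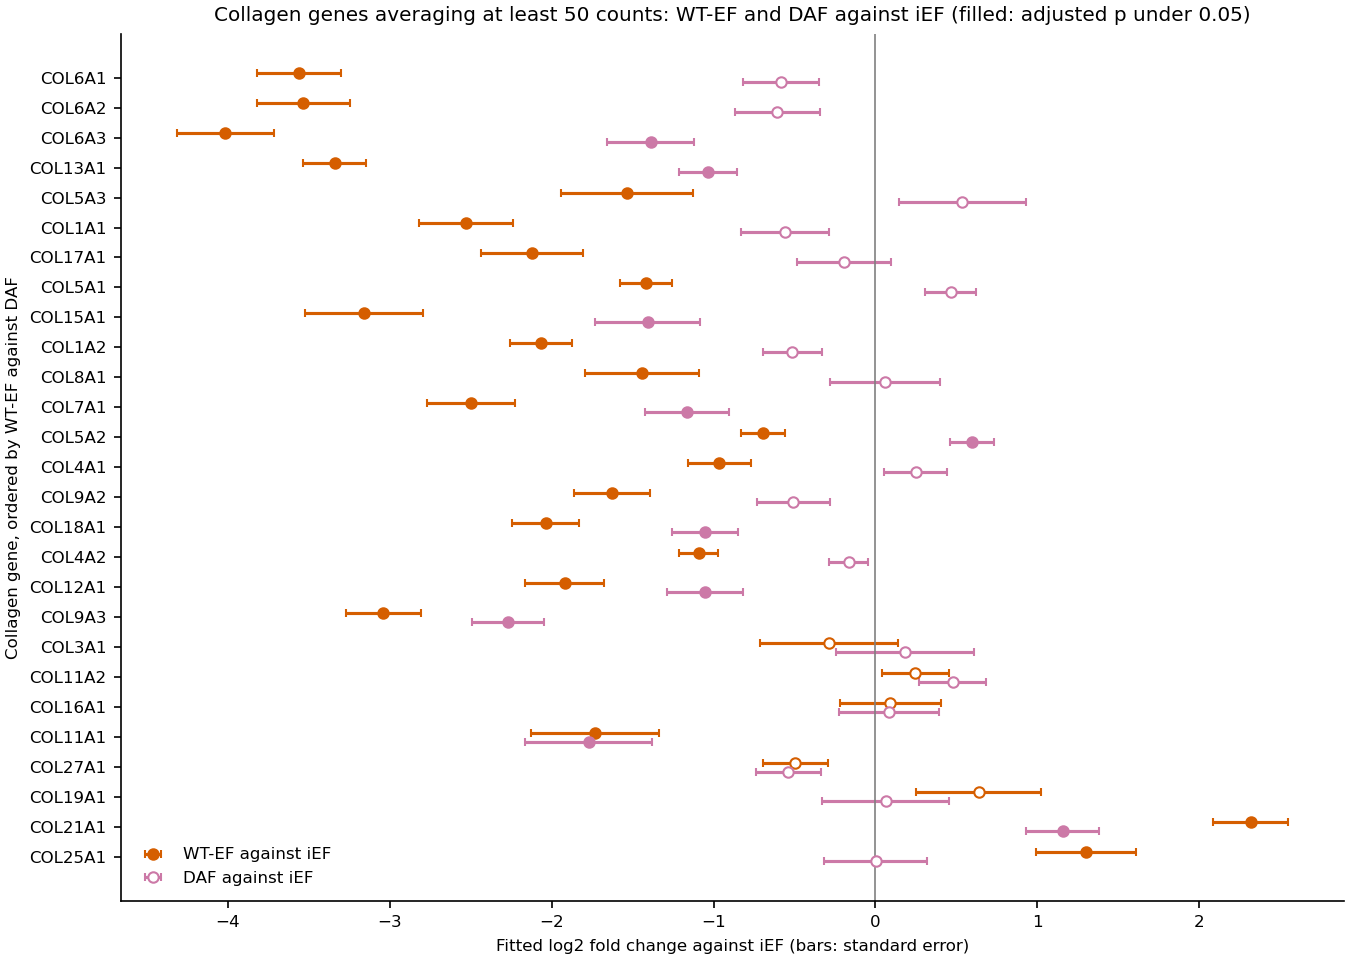
Log2 fold change against iEF, with its standard error, in WT-EF and DAF for the 27 collagen genes averaging at least 50 counts, ordered by WT-EF against DAF, filled where the adjusted p was under 0.05. WT-EF lies far to the left of DAF for COL6A1, COL6A2, COL6A3 and COL13A1, the 2 coincide for COL11A1, and only COL5A2 has filled points on both sides of 0.

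Genes that act on collagen were read from 4 lists. Beside their counts, 22.1% of all tested genes were lower and 19.5% higher in iLuc than in iEF. These shares were 17.0% and 12.9% in WT-EF, 6.19% and 5.00% in DAF, and 0.830% and 0.472% in Δ22. Chains are hydroxylated, glycosylated and folded in the endoplasmic reticulum before export. Of 25 genes for these steps, 20 were lower and 3 higher in iLuc than in iEF, 19 lower and 1 higher in WT-EF, 3 lower and 0 higher in DAF, and 0 and 0 in Δ22 by edgeR, where 3 were lower and 1 higher at an unadjusted p under 0.05 (7.13% and 6.48% of all tested genes). The largest falls in iLuc were of the prolyl hydroxylase subunits P4HA3 (-4.01, SE 0.38, adjusted p = 7.66e-07) and P4HA2 (-3.71, SE 0.24, adjusted p = 1.79e-08) and of CREB3L1, a transcription factor of secretory cells (-3.62, SE 0.28, adjusted p = 1.14e-07). P4HA2 was at 5.20, 8.58 and 6.48 CPM in iLuc, 69.9, 85.9 and 110.3 CPM in iEF, 18.1, 19.3 and 13.6 CPM in WT-EF and 75.4, 102 and 128 CPM in DAF. Its WT-EF libraries lay between iLuc and iEF, and DAF overlapped iEF (0.19, SE 0.20, adjusted p = 0.663). The 3 that rose were the galactosyltransferase COLGALT2 (0.96, SE 0.15), the ion channel TMEM38B (0.53, SE 0.10) and the prolyl isomerase FKBP14 (0.39, SE 0.11).

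Secreted procollagen is trimmed and crosslinked. Of 13 genes for these steps, 10 were lower and 1 higher in iLuc, 8 lower and 0 higher in WT-EF, 3 lower and 1 higher in DAF, and 1 lower in Δ22 (PCOLCE, the enhancer of the procollagen C-proteinase, -1.43, adjusted p = 0.0199). At an unadjusted p under 0.05 by edgeR, 4 were higher and 2 lower in Δ22, where 6.48% and 7.13% of all tested genes were. LOX, which crosslinks collagen and elastin, was at 4.31, 2.89 and 3.19 CPM in iLuc, 405, 266 and 422 CPM in iEF, 66.0, 45.5 and 13.3 CPM in WT-EF and 244, 153 and 173 CPM in DAF. These 4 conditions did not overlap, with iLuc lowest, then WT-EF, DAF and iEF. Its relatives LOXL2 and LOXL4 were lower in iLuc (-5.68, SE 0.32, adjusted p = 6.94e-09, and -4.48, SE 0.48, adjusted p = 2.79e-06). TLL1, a procollagen C-proteinase, was at 30.9, 28.7 and 53.6 CPM in iLuc, 6.54, 12.1 and 6.25 CPM in iEF, 5.51, 3.33 and 5.62 CPM in WT-EF and 37.7, 34.1 and 66.5 CPM in DAF. It was higher than in iEF by 2.12 in iLuc (SE 0.31, adjusted p = 4.99e-05) and by 2.41 in DAF (SE 0.31, adjusted p = 0.000208), and -0.80 in WT-EF did not pass (adjusted p = 0.0685).

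Of 11 tested collagen receptors, 9 were lower and 0 higher in iLuc, 9 lower and 1 higher in WT-EF, and 3 lower and 1 higher in DAF. In Δ22, 0 were called in either direction by edgeR. At an unadjusted p under 0.05, 2 were lower and 1 higher in Δ22, where 7.13% and 6.48% of all tested genes were. The one that was higher in WT-EF and DAF was GP6, a platelet receptor, named here after its values were seen. GP6 averaged only 15.3 counts per library, with means of 0.210 CPM in iEF, 0.555 CPM in WT-EF and 0.996 CPM in DAF. The collagen-binding integrin subunits ITGA11 and ITGA10 and the adhesion receptor ADGRG1, which binds type III collagen, had the largest decreases in iLuc, with log2 fold changes of -6.55 (SE 0.38), -6.35 (SE 0.35) and -5.65 (SE 0.32). In WT-EF these were -3.06 (SE 0.28), -4.40 (SE 0.30) and -3.31 (SE 0.26). Of 14 tested proteins that bind collagen fibres, 9 were lower and 1 higher in iLuc, 5 lower and 1 higher in WT-EF, 3 lower and 0 higher in DAF and 1 lower in Δ22. In iLuc the log2 fold change was -6.12 for THBS2, a thrombospondin (SE 0.56, adjusted p = 6.17e-07), -3.52 for FN1, fibronectin (SE 0.11, adjusted p = 1.03e-10), and -3.2 for BGN, biglycan (SE 0.39, adjusted p = 1.08e-05). The one that rose in iLuc was DCN (decorin), a gene named here after its values were seen, which averaged 22.3 counts per library. In WT-EF against DAF, 20 of the 25 modification and folding genes, 9 of the 13 processing genes, 10 of the 11 receptors and 5 of the 14 fibre-binding proteins were lower in WT-EF. The shares of all tested genes called in each comparison are those given above for the collagen genes.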

How the data were processed

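RNA was measured by paired-end RNA-seq in 15 libraries of A673 cells, 3 in each of 5 conditions. Per the labels and the study's methods, the authors aligned reads to hg19 with STAR (version 2.5.1b in the submitters' processing notes) and deposited raw counts per gene from HTSeq; the strand setting is not given in the sources used here. A ComBat-adjusted table of counts, in which the authors removed the difference between replicate sets, was used as an alternative only. The table of the authors' fold changes and p-values was not used, nor were 3 count columns that matched no sample.

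From the deposited counts, the 28793 genes with a mean of 1 count or more entered a single model of condition and replicate number with edgeR 4.0.16 (TMM, quasi-likelihood test, R 4.3.3), with Benjamini-Hochberg adjustment over all of them and a threshold of 0.05. Standard errors are the size of the log2 fold change divided by the square root of the F statistic of the quasi-likelihood test. Intervals are the estimate ± 1.96 standard errors and are somewhat narrower than that test implies. For COL1A1 in DAF against iEF, the interval was -1.09 to -0.03 where the test's unadjusted p was 0.0581. The replicate number entered as a block because the study treated each replicate set as a batch. Deviations of same-numbered libraries from their condition means correlated with a median of 0.19 (30 pairs, -0.18 to 0.78), against -0.08 for different numbers (60 pairs). Shares and chain ratios used exact permutation tests (scipy 1.17.1). CPM are counts scaled to the same effective library size, and are per kb of the canonical transcript where stated. The effective size is the total counts times the TMM factor, which ran from 0.894 (iEF replicate 3) to 1.11 (WT-EF replicate 3). The collagen shares are percentages of the total counts without this factor. Total counts of 28659475 to 41859880 set the precision, and genes with few counts are given as counts. Promoter windows are from RefSeq on GRCh38.p14.

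The members, the 4 pathway lists and the marker lists were chosen with earlier results of these data known. Values in every library are given for the 4 genes with the highest mean CPM in each class and for the 3 largest called increases and decreases against iEF averaging at least 50 counts, and up to 3 genes in each direction were named from each pathway list by iLuc against iEF. Alternatives were DESeq2 1.42.0, its size factors, other filters on low counts, no block, only the 6 libraries compared, the ComBat table, a log scale with 0.5 CPM added for ratios, and leaving out libraries.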

Additional observations from a re-analysis of the deposited data

Results flagged for a closer look

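COL5A2 was the only collagen gene averaging at least 50 counts that was called in opposite directions in the 2 full-length constructs, lower than iEF in WT-EF and higher in DAF. The test of the difference itself gave a log2 fold change of -1.29 for WT-EF against DAF (SE 0.14, adjusted p = 1.28e-05, edgeR's quasi-likelihood test). All 3 WT-EF libraries, at 333, 391 and 353 CPM, were below all 3 DAF libraries, at 753, 812 and 1107 CPM. COL5A2 was picked for its opposite calls in these same libraries. A difference between WT-EF and DAF follows from that choice and is not separate support. The call of DAF against iEF was lost in 4 of 16 alternatives, as given above.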

How the results depend on the processing

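The counts of collagen genes higher and lower in iLuc and in WT-EF than in iEF, higher in WT-EF than in iLuc and lower in WT-EF than in DAF stayed within 1.5 times their value under every alternative run. The smaller counts moved. With no filter on low counts, Δ22 against iEF gave 4 higher and 7 lower, DAF against iEF 5 and 14, DAF against Δ22 5 and 7, and WT-EF against iLuc 5 lower. The shares of all genes called then were 1.76% and 1.64%, 4.23% and 4.59%, 1.49% and 1.24%, and 5.86%. Fitting only the 6 libraries compared gave 1 higher and 4 lower for Δ22 against iEF, 6 and 15 for DAF against iEF, and 7 and 11 for DAF against Δ22, where the shares of all genes were 0.814% and 1.02%, 6.43% and 6.99%, and 4.91% and 4.64%. With DESeq2, Δ22 against iEF had 1 higher (1.61% of all genes) and DAF against Δ22 had 2 higher and 3 lower (1.63% and 1.07%). On the ComBat-adjusted counts, Δ22 against iEF had 1 higher and 1 lower (1.81% and 2.26% of all genes), DAF against Δ22 1 and 3 (1.66% and 1.14%), and WT-EF against iLuc 5 lower (9.76%). Without the replicate block, Δ22 against iEF had 1 lower (0.434% of all genes), and no other count of collagen genes moved by over 1.5 times. The cause of these moves was not tested.

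Leaving out libraries gave 0 to 1 higher (0 to 0.927%) and 0 to 3 lower (0 to 1.23%) for Δ22 against iEF. DAF against iEF had 1 to 4 higher (1.72% to 4.56%) and 3 to 11 lower (2.01% to 4.87%). WT-EF against iLuc had 0 to 4 lower (2.43% to 9.45%), and WT-EF against DAF 1 to 3 higher (7.49% to 12.2%). DAF against Δ22 had 0 to 2 higher (0.262% to 1.10%) and 0 to 1 lower (0.0314% to 0.639%). The percentages are the shares of all tested genes called in the same fits. The log2 ratio of COL6A3 to COL6A1 in iLuc against iEF ran from -2.3 to -1.56. Where a library left out leaves a condition with fewer samples, the spread is pooled over all conditions. Of 1895 values of single genes under the alternatives, 83 changed sign, all of genes not called in either fit, the largest at 0.35 on the log2 scale. The 17 genes averaging fewer than 50 counts limit what could be detected there.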
